A study of Mus musculus with 12 samples.

Results

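In control lung, the RNA held by an antibody against N6-methyladenosine (m6A) was compared with the RNA the antibody left in the supernatant, probe by probe and within each mouse. A probe was included where its name began with ASMM10EP3, the prefix of the array's transcript probes, and where the scanner marked it well above background in both fractions on all 3 control arrays. This rule kept 32865 of the 56554 transcript probes (58.1%). Of these, 117 had a spot marked as not uniform on a control array and were left out, so that 32748 probes were tested.

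m6A is a methyl mark placed on adenosines inside mRNAs and lncRNAs by a nuclear complex built around METTL3 and METTL14, within a short sequence motif and often near stop codons and in long exons. Demethylases such as FTO and ALKBH5 can remove it, and reader proteins of the YTH family recognise it and influence the decay, splicing and translation of the transcript. Antibody pulldown sorts transcripts by how readily the antibody holds them, so a transcript's share in the bound fraction against the unbound fraction is read as a relative measure of its methylation.

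The series holds whole lung of female BALB/c mice aged 8 to 10 weeks per the labels, 3 control mice and 3 mice with allergic asthma. Control mice were given PBS both by injection and by challenge. Asthma mice were sensitized to ovalbumin (OVA) at 0.01% on days 0 and 7 and then breathed 2.5% OVA aerosol 3 times a week for 7 weeks. Each mouse gave 2 samples, the bound fraction (IP) labelled with Cy5 and the unbound fraction (Sup) labelled with Cy3, and both were hybridised to 1 array, giving 12 samples on 6 arrays. Lung tissue mixes many cell types, and neither fraction shows which of them a transcript came from.

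Dye and fraction cannot be told apart here, because IP was always Cy5 and Sup always Cy3. The scanner's processed signal is also dye-normalized within the array, which removes most of any overall difference between the fractions. The values below are therefore the log2 of IP over Sup less the median of the probes tested on that array, called the log ratio. A log ratio of 0 is the array's middle probe, not an absence of m6A, and only the place of a probe relative to others on its array was read. Centring takes out a shift shared by the array. A dye effect of a single probe stays in its log ratio and would recur on every array. Such effects were not tested. A probe was called higher or lower where its mean differed from 0 by more than 1.5-fold (0.585 on the log2 scale) and its Benjamini-Hochberg adjusted P from limma was below 0.05.

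More probes were well above background in the unbound (Cy3) than in the bound fraction (Cy5). Dye and fraction cannot be told apart in these counts either. On control arrays 1, 2 and 3, 66.7%, 66.1% and 60.1% of transcript probes were well above background in IP, against 80.4%, 84.4% and 80.6% in Sup. No transcript spot was saturated. A further 5311 probes were well above background in Sup on all 3 control arrays and in IP on none, and 6045 in Sup on all 3 and in IP on 1 or 2. The reverse was rare, since 107 probes were above background in IP on all 3 arrays but not in Sup on all 3, and 22 of these were above it in Sup on none. The remaining probes were 7931 in neither channel of any control array and 4295 with other mixtures. The same filter on the asthma arrays passed 36766 probes. The array labels put control mouse 1 on slide 1 with the asthma mice, and control mice 2 and 3 on slide 2.

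The transcript probes of control lung were spread widely in IP over Sup. Of the 32748 probes, 7610 (23.2%) were called higher and 8315 (25.4%) were called lower in the bound fraction than the array median (limma, Benjamini-Hochberg adjusted), 15925 or 48.6% either way. With limma's normexp background correction (offset 50) on the scanner's median signal, these counts were 3790 and 5263. That setting also leaves out the scanner's dye normalization. The log ratio had a standard deviation over probes of 0.92, 0.84 and 0.89 on control arrays 1, 2 and 3. The central 50% of probes ran from -0.67 to 0.60 on array 1, from -0.56 to 0.50 on array 2 and from -0.61 to 0.56 on array 3. These ranges overlapped almost completely, and the 3 mice had closely similar distributions.

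The distribution was not symmetric. Its 1st percentile was -2.30, -2.36 and -2.34 on control arrays 1, 2 and 3, and its 99th percentile was 1.88, 1.77 and 1.91. A mean log ratio below -2 was found for 619 probes and one above 2 for 129. Beyond 3, the counts were 67 below and 2 above, and 39 probes were below -3 on every control array while none was above 3 on every one. The probes farthest from the middle were thus those lowest in IP over Sup.

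The spread between mice was small against the spread between probes. The median probe had a standard deviation of 0.20 over the 3 control mice, while the means of the probes had one of 0.86, and 94.0% of the sum of squares lay between probes. For 98.0% of probes the standard deviation over mice was under the 0.585 used for calls. Ranks of the probes correlated between control arrays with Spearman's rho of 0.900 for mice 1 and 2, 0.904 for mice 1 and 3 and 0.915 for mice 2 and 3. These are descriptions over 32748 probes, which share sequence composition and hybridisation and are not independent replicates. P values rest on the spread between these 3 control arrays, 1 for each mouse. In limma each probe's variance is moderated, that is, drawn toward a value shared over all probes.

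The bottom of the ranking was shared between mice more than the top. Of the 327 probes in the lowest 1% of an array, 174 (53.2%) were in the lowest 1% of all 3 control arrays. Of the 327 in the highest 1%, 83 (25.3%) were in the highest 1% of all 3. At 5%, or 1637 probes an array, the shared counts were 993 (60.7%) at the bottom and 691 (42.2%) at the top. Only 1 probe lay in the top 1% of one control mouse and the bottom 1% of another, and 2 did at 5%.

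The probes shared at the ends differed in brightness. The 993 probes in the lowest 5% of every control array had a median log2 signal of 11.3 in Sup and 9.25 in IP, against 8.81 and 8.84 over all tested probes. The 691 in the highest 5% of every array had 8.18 in Sup and 10.1 in IP. Split into quartiles of the mean log2 signal of both fractions, the 993 low probes numbered 25, 187, 309 and 472 from dimmest to brightest, and the 691 high probes 202, 114, 173 and 202. The filter sets part of this, since a probe far down in IP over Sup passes only where its Sup signal is bright.

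The named ends of the ranking were 4 probes of the ASMM10EP3A series, which the files used here pair with no gene. ASMM10EP3A108948920 had log ratios of 2.91, 2.90 and 3.30 in control mice 1, 2 and 3, with log2 IP signals of 10.7, 10.6 and 11.0 over Sup signals of 7.60, 7.59 and 7.62 (limma, adjusted P = 1.66e-07). ASMM10EP3A108500740 had 3.05, 2.54 and 2.85 (adjusted P = 2.26e-07). Both sat above 99.9% of the tested probes in every control mouse. At the other end, ASMM10EP3A127400893 had -3.96, -4.14 and -4.84 and ASMM10EP3A122844308 had -3.58, -4.19 and -4.19 (limma, adjusted P = 1.31e-07 for each). Both of these were bright, with log2 Sup signals between 14.8 and 16.4, and their log2 IP signals lay between 10.5 and 12.9. In the asthma mice the first pair had log ratios from 2.63 to 3.29 and the second from -4.82 to -3.93, so neither pair left its end of the ranking.

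Brightness moved with the log ratio mainly among dim probes. In the dimmest quartile the median log ratio was 0.15, 0.13 and 0.16 on control arrays 1, 2 and 3, and in the other quartiles it lay between -0.09 and -0.02. The dimmest quartile had 26.8% of its 8187 probes called higher and 15.8% called lower, against 22.2% and 30.9% in the brightest. The median standard deviation over mice fell from 0.25 in the dimmest quartile to 0.18 in the brightest, so values of bright probes were the more precise. Ordered by brightness in 10 equal sets, the probes had a median of 0.36 in the dimmest set, 0.02 in the next and between -0.11 and -0.03 in the rest. The filter acts on the same quantity, since a dim probe low in IP fails it, and its part in the shift of the dim probes was not tested.

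The probes that failed in IP alone gave only bounds. For the 5311 probes above background in Sup and never in IP, the lowest signal the scanner called well above background in IP set a floor. A bound on how much lower IP was than Sup could be given for 4742 of them, and it exceeded 1.5-fold for 53, or 0.998%, with a highest value of at least 3.01-fold. Their median log2 Sup signal was 5.53, against 8.81 for the tested probes. For nearly all of them, absence from IP therefore gave no bound past 1.5-fold.

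The files name genes for one set of probes, 50 Agilent probes with a transcript accession that are each spotted 10 times. Of these, 45 accessions matched a gene in RefSeq and 35 of the 45 genes passed the filter with all 10 spots in both fractions of every control mouse. Averaged over their spots and fitted together with the tested probes, 10 were called higher and 4 lower, and 21 were not called (limma, Benjamini-Hochberg adjusted over all probes in the fit). Over all tested transcript probes, 23.2% were called higher and 25.4% lower. This fit was added after the files were seen to name these probes, which are the maker's replicate spots and not a chosen pathway. Their median log ratio was 0.0059, beside 0 for the transcript probes, and 16 were above the array median in all 3 control mice and 14 below it in all 3.

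Chgb was the gene most on the bound side. It encodes chromogranin B, a protein of the secretory granules of neuroendocrine cells. Its log ratios were 1.83, 1.894 and 1.99 in control mice 1, 2 and 3, with a standard deviation of 0.083. The mean was 1.90 ± 0.12 (limma's moderated SE, n = 3) with limma adjusted P = 7.66e-07. Its mean rank was the 99.1th percentile of the tested probes. Ppara, the nuclear receptor that switches on genes of fatty acid oxidation, had 1.33, 1.07 and 1.34, at the 94.0th percentile on average. Cep41, a centrosomal and ciliary protein, had 1.20, 1.12 and 1.14. For all 3 genes every control mouse was far above the call threshold.

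Anxa8, a calcium- and phospholipid-binding annexin, was called higher with the widest spread of the 10, with log ratios of 1.10, 0.37 and 1.28. Control mouse 2 was below the call threshold for it. Taf1a, a subunit of the factor that recruits RNA polymerase I, had 0.91, 0.71 and 0.92. Alkbh4, a demethylase of the AlkB family to which ALKBH5 and FTO also belong, had 0.80, 0.78 and 0.82. Of the genes called, Alkbh4 was the most alike in the 3 mice, with a standard deviation of 0.016. Dnajc11, a mitochondrial co-chaperone, had a mean of 0.73, and Nup50, a nuclear pore protein, one of 0.67. The olfactory receptor gene Olfr1307 and Mbp, which encodes myelin basic protein, had means of 0.60 each, and for both genes only control mouse 2 lay above the threshold. Without control mouse 2 neither was called (0.48 each). With normexp these 2 genes (0.32 and 0.28), Nup50 (0.46), Dnajc11 (0.56) and Alkbh4 (0.58) were not called. The first 3 of these were also not called with no background correction (0.48, 0.42 and 0.51) or with loess (0.35, 0.32 and 0.52).

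Genes on the unbound side included a pair often used as references. Actb, which encodes cytoplasmic beta-actin, had log ratios of -0.93, -1.13 and -1.05 (limma, adjusted P = 3.05e-05), at the 13.8th percentile on average. The array's control probe named GAPDH_3, for mouse GAPDH, a glycolytic enzyme, had -0.95, -1.09 and -1.02 (adjusted P = 3.09e-05). The probe named GAPDH_5 had -0.59, -0.61 and -0.89 (adjusted P = 0.000598). The files used here do not say which part of the transcript each probe covers. All of these values were below the array median in every control mouse, and GAPDH_3 was lower than GAPDH_5 on each array. The probe named PGK1_3, for another glycolytic enzyme, had -0.45, -0.39 and -0.41 and was not called. The probe named PGK1_5 was above background in Sup alone, which gave a bound of at least 1.05-fold lower in IP. This bound comes from uncentred mean log2 levels of 6.02 in Sup and 5.94 in IP, on another scale than the log ratios.

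Prdx2 was the lowest of the named genes. It encodes peroxiredoxin 2, a cytosolic enzyme that reduces peroxides, and its log ratios of -1.44, -1.29 and -1.37 put it at the 7.60th percentile (limma, adjusted P = 4.67e-06). Cav2, the membrane protein caveolin 2, had -1.84, -0.94 and -0.93. Each mouse was past the threshold, with control mouse 1 well under the others.

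The 21 genes that were not called ran from -0.54 for Gsta4, a glutathione transferase, to 0.51 for Pex11a, a peroxisomal membrane protein. Cpt1a, which carries fatty acids into mitochondria and is a known target of PPARA, had 0.51, 0.40 and 0.57, above the median in all 3 mice and short of 1.5-fold. Rps4l, listed in RefSeq as a ribosomal protein S4-like transcript, had -0.45, -0.53 and -0.56. Apoe, the lipid carrier apolipoprotein E, had -0.30, -0.56 and -0.40, and the class I histocompatibility gene H2-Q7 had -0.36, -0.47 and -0.32. Both are bright, with log2 signals between 15.3 and 16.2, and their sign depended on the setting. With normexp on the median signal, without dye normalization, the mean was 0.062 for Apoe and 0.20 for H2-Q7. With loess dye normalization added to normexp, the means were -0.44 and -0.33. Spats1 was above background in Sup alone, with a bound of at least 1.08-fold lower in IP. This bound comes from uncentred mean log2 levels of 6.02 in Sup and 5.91 in IP, on another scale than the log ratios. Tyr and Gabrg1, genes of pigment cells and neurons, were above background in neither fraction.

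The transcripts that the study lists as its leading differences between asthma and control could also be placed. The lists hold 20 mRNAs and 20 lncRNAs, and each was tied to 1 probe through its listed fold change and P, which the deposited IP values return. The lists were chosen on the IP channel of these same control arrays against asthma: those listed as lower in asthma had more IP signal in control than in asthma lung, and those listed as higher had less. Their places in the ranking are therefore a description and no independent evidence, and they carry no test as a list.

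All 10 mRNAs listed as lower in asthma passed the filter in control lung, and 9 were called higher in the bound fraction, against 23.2% of all tested probes. Their median log ratio was 0.95, with a range from 0.50 to 1.27. Tmem252, which encodes a transmembrane protein, was the highest, with 1.24, 0.84 and 1.72 in control mice 1, 2 and 3. Zc3h18, a nuclear zinc-finger protein that links the RNA cap-binding complex to RNA decay, had 1.56, 1.17 and 0.92. The zinc-finger gene Zfp287 had 1.14, 0.67 and 1.48, and Gemin8, a subunit of the SMN complex that assembles small nuclear ribonucleoproteins, had 1.47, 0.70 and 0.92. Each of these 4 was above the threshold in every control mouse, and the mice differed by more than they did for the median probe. Zfp287, with log2 Sup signals from 4.91 to 5.34, was not called with normexp (0.24) or with loess within arrays (0.16).

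Fpr1, the formyl peptide receptor of neutrophils and other phagocytes, had 0.95, 0.83 and 1.09, at the 88.3th percentile on average. Dnajc28, of the DnaJ co-chaperone family, had 1.39, 0.75 and 0.68, and Fabp1, a fatty acid-binding protein best known from liver, had 0.62, 0.59 and 0.99. Tbc1d4, a regulator of Rab GTPases in glucose transport, had 1.05, 0.51 and 0.60. The replication-dependent histone gene Hist1h3d had 0.71, 0.26 and 0.81, with control mouse 2 well below the others. Without control mouse 1, Tbc1d4 (0.55) and Hist1h3d (0.53) were no longer called, and Hist1h3d (0.48) was not called without control mouse 3. Neither Tbc1d4 nor Hist1h3d was called with normexp (0.46 and 0.26), with no background correction (0.43 and 0.39) or with loess (0.44 and 0.28). Apold1, an endothelial early response gene, was the 1 of the 10 not called, with 0.53, 0.22 and 0.75. It was called without control mouse 2 (0.64), with normexp (0.71), with no background correction (0.79) and with loess (0.77).

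Of the 10 mRNAs listed as higher in asthma, 3 passed the filter in control lung, and they lay apart from each other. Chil4, a chitinase-like protein of macrophages and airway epithelium in allergic lung, was called lower, with log ratios of -1.72, -1.03 and -0.40 (limma, adjusted P = 0.00095). Its mice had the widest spread of the listed transcripts, and control mouse 3 was within the threshold. It was not called with normexp (-0.54) or loess (-0.51). Rnase2a, an eosinophil-associated ribonuclease, was called higher, with 0.68, 0.39 and 0.93, and was no longer called without control mouse 3 (0.53), with normexp (0.24), with loess (0.24) or with no background correction (0.50). Slc26a4, the anion exchanger pendrin, had 0.53, -0.02 and 0.44 and was not called. Cd209e, a C-type lectin, and Arg1, the arginase of alternatively activated macrophages, were above background on all 3 control arrays in Sup and on none in IP. Ptgdr, a prostaglandin D2 receptor, and Gcnt3, a mucin-type glycosyltransferase, were above background in neither, and Clca1, a secreted goblet cell protein, was above it in 2 of 3 mice in each fraction.

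Among the lncRNAs listed as lower in asthma, 9 of 10 passed the filter. Of these, 5 were called higher, against 23.2% of all tested probes, and the median was 0.89. RP23-436D9.1 stood far out, with log ratios of 2.88, 2.47 and 2.84, above 99.9% of the tested probes in every control mouse (limma, adjusted P = 2.26e-07). Its log2 IP signals were 12.4, 12.0 and 11.9 over Sup signals of 9.38, 9.38 and 8.89. It had the highest mean rank of all called probes in its series, ASMM10EP3B. The lncRNA listed under the symbol Brox had 1.43, 1.10 and 1.17, and RP23-334L22.1 had 1.22, 0.70 and 1.67, although this dim probe had a mean of 0.24 and was not called with normexp. RP23-157H17.2 and RP24-182L3.1 had means of 0.93 and 0.89 and were above the threshold in every control mouse. The other 4 had means from -0.07 to 0.44 and were not called, but RP24-95P4.2 was called without control mouse 1 (0.81) and RP24-496C22.4 without control mouse 2 (0.60).

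Of the 10 lncRNAs listed as higher in asthma, 4 passed the filter and none was called, against 48.6% of all tested probes called either way. The one listed as Nfyc was lowest, with -0.64, -0.42 and -0.34. Those listed as Ntmt1 (0.06, 0.11 and 0.08), Fgf18 (0.18, 0.01 and 0.25) and RP23-71C23.1 (-0.22, 0.31 and 0.27) lay near the array median. For the asthma minus control difference of the log ratio, none of the 26 tested listed transcripts was called. Zfp287 and RP23-334L22.1 were above background in IP on none of the asthma arrays and RP23-132N23.1 on 2, so no difference is given for them. Of the others, RP23-153M14.4 had a difference of -0.93 and Ntmt1 one of 0.71 (limma, adjusted P = 0.58 for each).

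Among the tested probes, the series that holds the listed lncRNAs had a median close to that of the series that holds the listed mRNAs. The ASMM10EP3B series had 3818 of its 8497 probes tested and ASMM10EP3A 28930 of 48057. Called higher were 22.8% of ASMM10EP3B and 23.3% of ASMM10EP3A probes, and called lower 25.5% and 25.4%. The median log ratio of ASMM10EP3B minus that of ASMM10EP3A was -0.01, 0.02 and -0.002 in control mice 1, 2 and 3, a mean of 0.0023 ± 0.016 (SD, n = 3; exact sign-flip permutation test, two-sided, p = 1, where 3 mice allow no p below 0.25). No difference was detectable with 3 mice. This mean was 0.13 with no filter on dim probes and -0.073 in the brighter 16374 probes, and the files used here do not say that the series are RNA classes. Among the 993 probes in the lowest 5% of every control array 12.6% were ASMM10EP3B and among the 691 in the highest 5% 11.7%, beside 11.7% of all tested probes.

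The ranking in control lung was close to the ranking in asthma lung. IP was Cy5 and Sup was Cy3 on the asthma arrays too, so this closeness does not separate fraction from dye. Of the 7603 probes called higher in control with a value on every asthma array, 7520 (98.9%) were above the median on all 3 asthma arrays and 6012 (79.1%) were more than 1.5-fold above it on all 3. Of the 8298 called lower, 8261 (99.6%) were below the median on all 3 and 6996 (84.3%) more than 1.5-fold below. Over all tested probes, 42.9% were above and 43.0% below on all 3 asthma arrays. Of the 691 probes in the top 5% of every control array, 537 (77.7%) were in the top 5% of every asthma array, and of the 993 in the bottom 5%, 811 (81.7%).

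No probe was called different between asthma and control in the log ratio (limma, Benjamini-Hochberg adjusted, 0% of 32748), and 426 passed 1.5-fold with an unadjusted P below 0.05, of which 123 were higher and 303 lower in asthma. This split depended on the setting, with 1415 higher and 832 lower with slide as a block and 257 and 129 with no background correction. The mean log ratios of asthma and control differed by less than 1.5-fold for 98.5% of probes. These probes were chosen on the control arrays alone. Transcripts detected only in asthma lung were therefore not compared, and some below background in asthma IP were kept. With limma's normexp background correction on the median signal, which is not dye-normalized, 451 probes were called higher and 7 lower in asthma. The raw, uncorrected median of IP over Sup followed the slide as well as the group. On slide 1 it was 0.29 for control mouse 1, below the 0.42, 0.55 and 0.52 of asthma mice 1, 2 and 3. On slide 2 it was -0.15 for control mouse 2 and -0.17 for control mouse 3. Slide 2 held no asthma array, so group and slide could not be well separated for this median. Its part in the normexp calls was not tested. Ranks of control mouse 1 correlated with those of asthma mice 1, 2 and 3, on the same slide, with Spearman's rho of 0.902, 0.908 and 0.942 over probes. For control mice 2 and 3, on the other slide, rho with the asthma mice lay between 0.924 and 0.935, above the 0.915 between the 2 of them.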

How the data were processed

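Intensity values for every spot, local background and flags for both channels were deposited by the authors from Agilent Feature Extraction (version 11.0.1.1). The processed signal used here is background-subtracted and dye-normalized by that software. The deposited log2 table has 41337 rows and returned the same log ratios for all 32748 probes. The labelled cRNA was fragmented before hybridisation, and no fragmentation before the pulldown is described.

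For each control array, log2 Cy5 (IP) minus log2 Cy3 (Sup) was centred on the median of the tested probes. The means were tested in limma (3.58.1, run under R 4.3.3; intercept fit, empirical Bayes) with Benjamini-Hochberg adjustment over all tested probes, a fold of 1.5 and P of 0.05. Asthma minus control was fitted on all 6 arrays. The scripts were tested on simulated data, and recovery depended on the spread assumed. Of known log2 differences of 1, 27% were called with each probe's own standard deviation over 3 arrays. With values drawn from limma's fitted prior 91% were called, and with shrunken values 100%. The other spreads were added after the first recovered less than planned. The 2 files of each mouse are identical and were read as 1 array.

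Named were the highest and lowest called probes by mean rank, the 40 listed transcripts (matched within 1e-06 on the log2 scale) and genes named by accession. 1 accession-named gene is not reported here by name. Members and lists were chosen with earlier results of these data known. Planned gene lists and cell markers were not analysed here, since the transcript probes carry no gene names. Alternatives covered background correction, dye normalization, filters, scaling, pairing, variance, slide, threshold and each mouse left out. The number of arrays limits the precision.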

Additional observations from a re-analysis of the deposited data

How the results depend on the processing

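The 7610 higher and 8315 lower calls became 3790 and 5263 with limma's normexp background correction (offset 50) on the median signal. That signal is not dye-normalized. With loess within arrays, applied to the normexp values, they became 3505 and 5174. They were 3538 and 5130 without the empirical Bayes step, and 3195 and 4533 at a fold of 2. In the brighter 16374 probes they were 4165 and 4512, and with no filter on dim probes 13520 and 13705 (56432 tested). The last 2 settings change the number of probes tested by construction; for the others the cause was not tested. Shared with the calls above were 3170 higher and 5192 lower under normexp, and 2 probes changed side there, against 0 in each of the other settings. Leaving out 1 mouse gave 7359 to 7963 higher and 8075 to 8584 lower calls. With slide as a block the counts were 7805 and 8434, and slide 1 alone (1 array) and slide 2 alone put 89.6% and 90.2% of the higher calls past the fold. Without the pairing of IP and Sup by array (no replicate block) they were 7934 and 6837. Replicate number did not pair mice across groups (correlations of deviations -0.20, -0.002 and -0.18), and as a replicate block it left 0 calls between asthma and control.

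The standard deviation over probes (0.89 on average) was 0.63 under normexp, 0.77 with no background correction, 0.62 with loess, 0.97 with no filter and 0.95 in the brighter probes, and the lowest rank correlation was 0.880, 0.886, 0.890, 0.793 and 0.925 in the same order, and 0.900 to 0.915 with 1 mouse left out. The ASMM10EP3B minus ASMM10EP3A median was 0.13 with no filter and -0.073 in the brighter probes. The count of listed transcripts called lower (1, Chil4) was 0 under normexp and loess, and 0 in the brighter probes, where Chil4 was not tested. Between asthma and control, normexp gave 451 higher and 7 lower calls, and leaving out 1 mouse 0 to 1 lower (1 without asthma mouse 3). The median of the passing spike-in probes was -0.31 and of the small-RNA probes -0.18 under normexp. Of the 10 accession-named genes called higher, 5 were called under normexp.

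Among named genes and transcripts, signs turned only for those not called. With normexp the means were -0.0134 for RP23-71C23.1, -0.0420 for Fgf18, 0.0423 for RP23-132N23.1, -0.0316 for RP23-153M14.4, -0.0351 for H2-M2, 0.321 for Gpi1, 0.00193 for Carhsp1, 0.201 for H2-Q7 and 0.0623 for Apoe. With no background correction they were -0.0371 for RP23-71C23.1, -0.0894 for Fgf18, 0.101 for RP23-132N23.1, -0.0682 for RP23-153M14.4, -0.0880 for H2-M2, 0.267 for Gpi1, 0.146 for H2-Q7 and 0.00632 for Apoe. With loess they were -0.00800 for Fgf18, 0.0351 for RP23-132N23.1 and -0.0774 for H2-M2. With 1 control mouse left out the means ran from -0.202 to 0.114 for RP23-132N23.1, from -0.0749 to 0.330 for RP23-153M14.4, from -0.0473 to 0.0665 for H2-M2, from -0.298 to 0.0979 for Lhfp and from -0.0169 to 0.0233 for Hyal3. Values of dim probes varied more between mice than those of bright ones (median standard deviation 0.25 in the dimmest and 0.18 in the brightest quartile).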

Other observations

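Probes of other kinds on the same arrays were placed on the same scale. Of the 4087 probes with the prefix ASMM10SM1, a small-RNA series, 1888 passed the filter, and their median log ratio was -0.37, -0.25 and -0.27 in control mice 1, 2 and 3, with 648 above 0. Means in this series ran from -6.14 to 2.40, farther down than in the transcript probes. All 3 control mice had the small-RNA series below the transcript median.

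Of the 102 probes named as a spike-in series, 23 passed, with medians of -0.52, -0.46 and -0.65 and means from -2.15 to 1.37, 7 of them above 0. Their names do not tell methylated from unmethylated RNA, so they give no measure of the enrichment here. Of 12 ERCC probes 1 passed, at -1.52, -1.32 and -1.55. None of the 15 negative probes passed.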
